A study of Homo sapiens with 8 samples.

Results

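Genes that carry small nucleolar RNAs in their introns, and a few noncoding RNAs linked to cell growth, were examined in MOLM-13 cells treated with PR-957. MOLM-13 is a human acute myeloid leukemia line with a KMT2A rearrangement, and PR-957 (ONX-0914) blocks the immunoproteasome through its catalytic subunit PSMB8. All genes named SNHG followed by a number were taken, together with GAS5, ZFAS1, EPB41L4A-AS1, DANCR, MALAT1 and NEAT1. This gave 34 of the 38551 gene rows with values, of which 28 were SNHG genes and 6 had other names. Cells received 100 nM PR-957 or the diluent DMSO for 72 h, with 4 libraries per group from the same line and with no other allele or agent in the labels. Nothing in the labels says that libraries came from separate cultures, so p-values measure the spread between these libraries, which may be technical.

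Small nucleolar RNAs (snoRNAs) guide chemical modification of ribosomal RNA, the C/D class directing methylation and the H/ACA class directing pseudouridylation. Most are cut out of the introns of a host transcript, and the spliced exons of a noncoding host often have no protein product and can be removed by nonsense-mediated decay when ribosomes engage them. Many hosts start with a cytosine and a run of pyrimidines, the 5′ terminal oligopyrimidine motif shared with ribosomal protein genes, which ties their translation and decay to growth signals. MALAT1 and NEAT1 host no snoRNA in these gene models and are nuclear RNAs, MALAT1 in nuclear speckles and NEAT1 as the scaffold of paraspeckles.

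The hosts GAS5, SNHG29 and ZFAS1 were lower with PR-957, and the less abundant SNHG12 and DANCR were higher. Of 30 members with enough counts to test, 19 passed an adjusted p of 0.05 (63.33%, against 46.6% of all 13179 genes tested; edgeR quasi-likelihood test, Benjamini-Hochberg over all genes). Of these, 11 fell (36.67%, against 23.5% of all genes) and 8 rose (26.67%, against 23.1%). The 11 that fell were GAS5, SNHG29, EPB41L4A-AS1, ZFAS1, SNHG8, SNHG7, SNHG6, SNHG15, SNHG14, SNHG5 and SNHG1. The 8 that rose were SNHG12, DANCR, SNHG30, SNHG4, SNHG3, SNHG16, SNHG9 and SNHG25. With a fold of at least 1.5 added, 6 members were lower (7.00% of all genes were) and 5 were higher (6.80% of all genes were). The median log2 fold change over the tested members was -0.0015, and over all genes tested it was 0.003. The groups did not overlap for 17 of the 30 members (56.67%), as for 42.5% of all genes.

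**Figure D1:**
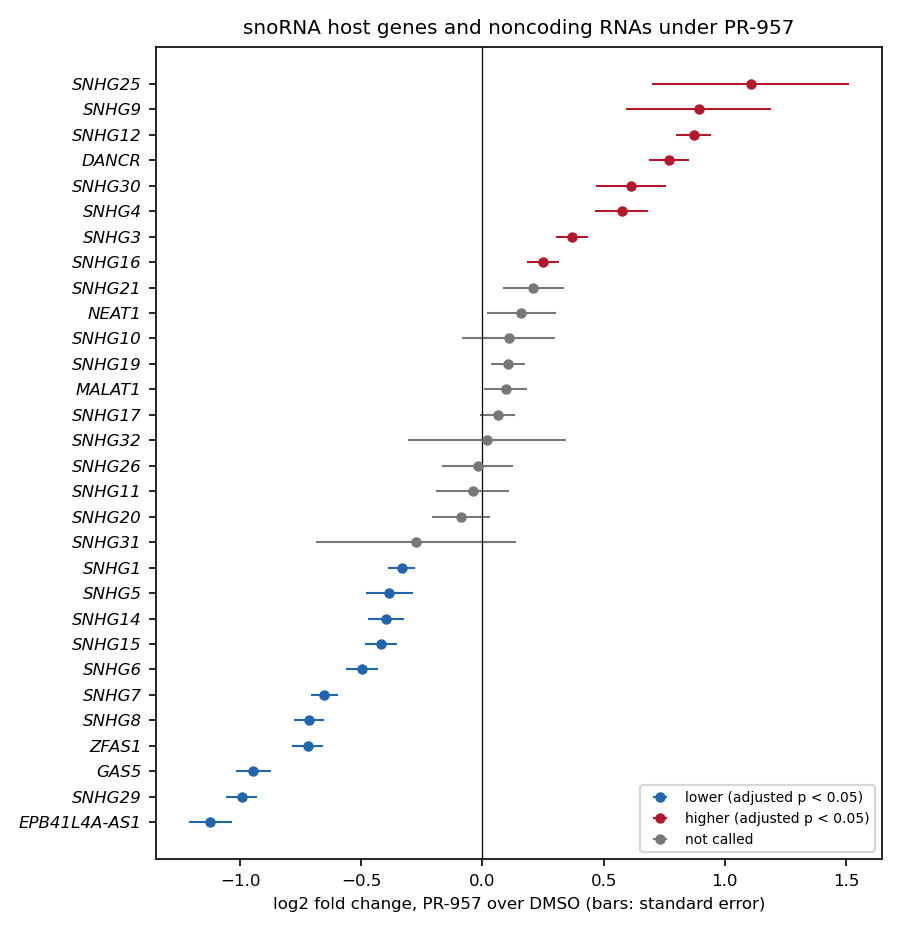
Log2 fold change of PR-957 over DMSO for the 30 tested members, with the standard error as bars; blue marks members that fell, red those that rose and grey those that did not pass an adjusted p of 0.05. Values ran from -1.12 for EPB41L4A-AS1 to 1.11 for SNHG25, whose bar is among the widest.

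Whole libraries also changed in makeup. Total counts ran from 16675036 to 23111223 per library. The share of counts on mitochondrially encoded genes was 1.94% to 2.75% in DMSO and 4.15% to 5.24% with PR-957 (exact permutation p = 0.0286, two-sided, the smallest that 4 against 4 can give; adjusted p = 0.0429). The share on cytosolic ribosomal protein genes was 17.8% to 19.1% in DMSO and 13.8% to 15.5% with PR-957 (exact permutation p = 0.0286, adjusted p = 0.0429). The members together took 0.640% to 0.705% of counts in DMSO and 0.488% to 0.509% with PR-957. Values are therefore relative to a changed total, and the part of these shifts in the results below was not tested. In bulk RNA, fewer cells that express a gene and less RNA per cell cannot be told apart. Of 7 myeloid genes looked at as a check of the cell line (CPM are counts scaled by TMM to a common library size), the lowest values over the 8 libraries were 14.7 for ANPEP, 34.9 for CD33 and 76.6 for FUT4, and SPI1, FLT3, MPO and LYZ were at 135.8 CPM or more. MPO ran from 159 to 552 CPM and LYZ from 135.8 to 940.5 CPM. The T cell, B cell and erythroid genes CD3D, CD3E, MS4A1 and HBB, and the epithelial gene EPCAM, stayed at or below 0.524 CPM, while the epithelial gene KRT8 was at 6.89 to 19.03 CPM.

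Of the 34 members, 27 reached a mean of 1 CPM over the 8 libraries, as 31.7% of all gene rows did. All of these but SNHG9 did so in every library, which left 26. The 7 below 1 CPM were SNHG25, SNHG31 and SNHG32, which were tested, and SNHG18, SNHG22, SNHG27 and SNHG28, which were not. SNHG18 had 0 counts in all 8 libraries, and 3 counts, the limit that a count of 0 allows, correspond to between 0.130 and 0.180 CPM in a single library. SNHG22 and SNHG27 had 1 count each over all libraries, and SNHG28 had 8 in DMSO and 7 with PR-957. The models of SNHG32 are also placed on 4 alternative contigs, where fragments that map to several places are not counted, so its mean of 0.972 CPM is not a reliable level.

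Per length, GAS5 was the most abundant member in DMSO. Its level was 2353 ± 142.6 (TPM, counts divided by exon length and scaled to the same total in each library, mean ± SD, n = 4), followed by SNHG29 at 1906 ± 87.7, SNHG6 at 1639 ± 68.02, SNHG5 at 1414 ± 134, ZFAS1 at 861 ± 41.8 and SNHG8 at 726 ± 36.1 TPM. MALAT1 at 211 ± 31.4 and SNHG19 at 192 ± 9.81 TPM differed by less than the SD of MALAT1. SNHG15, EPB41L4A-AS1 and SNHG7, at 157 ± 4.92, 156 ± 14.6 and 156 ± 5.59 TPM, also lay within 1 SD of each other. SNHG14, a host of 83 snoRNA rows, had the lowest mean of the expressed members at 6.49 ± 0.731 TPM, within 1 SD of SNHG9 at 7.04 ± 2.47 TPM. The exon length of SNHG14 includes bases shared with other genes, where fragments were left uncounted. Of the 10 members with the highest TPM in DMSO, 8 fell, 0 rose and 2 (MALAT1 and SNHG19) did not pass. Of the other 17 expressed members, 3 fell, 7 rose and 7 did not pass. The level in DMSO also enters each fold change, so these counts are a description.

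**Figure D2:**
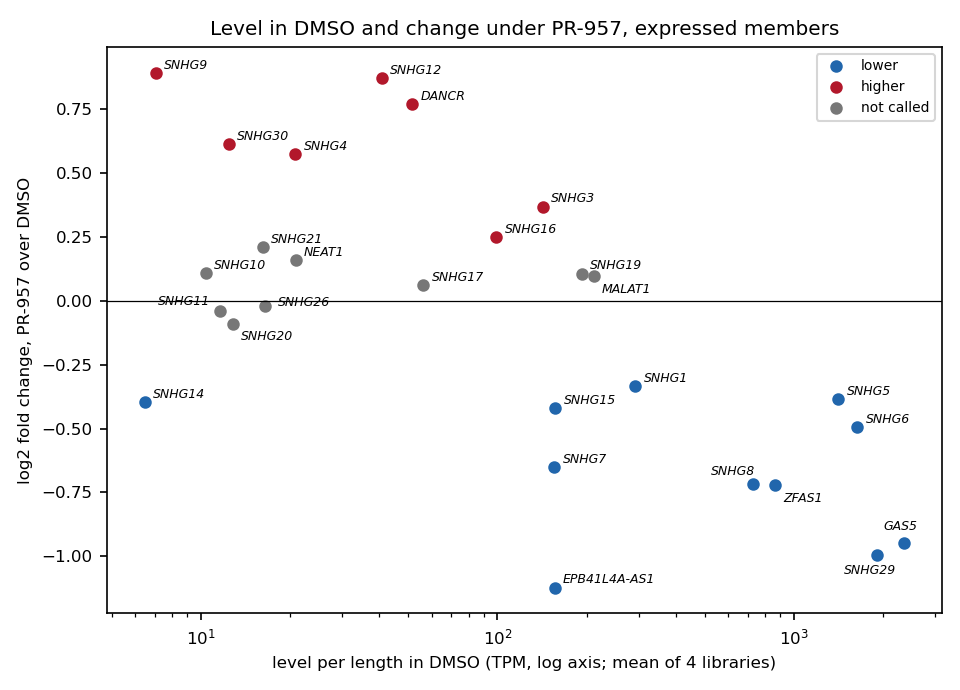
Level per length in DMSO (TPM on a log axis, mean of 4 libraries) against the log2 fold change of PR-957 over DMSO, one point per expressed member, coloured by call. The most abundant hosts, GAS5, SNHG29, SNHG6 and SNHG5, lie below 0, and SNHG12 and DANCR, near 40.8 and 51.7 TPM, lie above it.

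Some hosts have a pyrimidine run at or near an annotated start, shown here because ribosomal protein genes share this motif. As scored here the run is also common elsewhere, in 21.1% of 27305 RefSeq promoters. Whether a gene has it depends on which annotated start is read. Of 29 members with both a RefSeq and a GENCODE canonical start, 6 had a run at both. Another 8 had one at the RefSeq start only and 2 (GAS5 and SNHG29) at the GENCODE start only. Of the 6, only ZFAS1 and SNHG7 have the same start, and so the same run, in both annotations. In SNHG8, SNHG12, DANCR and SNHG17 the annotated starts lie at different positions and carry different runs. Windows of 40 bases are given 5′ to 3′ in the direction of the gene, with 20 bases before the annotated start and the start at base 21. Capitals mark a C followed by at least 4 pyrimidines that begins within 5 bases of the start. Sequence is hg38 (RefSeq GRCh38.p14 starts unless named otherwise). The 6 members with a run at both starts come first, at their RefSeq start: ZFAS1 (chr20:49278622-49278661, plus), SNHG8 (chr4:118278742-118278781, plus), SNHG7 (chr9:136728165-136728204, minus), SNHG12 (chr1:28581854-28581893, minus), DANCR (chr4:52712374-52712413, plus) and SNHG17 (chr20:38435309-38435348, minus). GAS5 (chr1:173869026-173869065, minus in RefSeq and chr1:173867970-173868009, minus in GENCODE) and SNHG29 (chr17:16438967-16439006, plus and chr17:16439017-16439056, plus) are given at both, and EPB41L4A-AS1 (chr5:112160506-112160545, plus) at the start that both annotations share.
ZFAS1: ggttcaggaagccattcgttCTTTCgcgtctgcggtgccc
SNHG8: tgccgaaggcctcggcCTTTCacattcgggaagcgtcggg
SNHG7: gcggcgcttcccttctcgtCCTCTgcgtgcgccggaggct
SNHG12: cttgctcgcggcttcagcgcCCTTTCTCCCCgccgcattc
DANCR: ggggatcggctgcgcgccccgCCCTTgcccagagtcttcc
SNHG17: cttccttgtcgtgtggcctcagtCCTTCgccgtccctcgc
GAS5 at the RefSeq start: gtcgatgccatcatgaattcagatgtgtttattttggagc
GAS5 at the GENCODE start: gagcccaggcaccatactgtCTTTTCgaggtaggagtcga
SNHG29 at the RefSeq start: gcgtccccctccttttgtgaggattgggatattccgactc
SNHG29 at the GENCODE start: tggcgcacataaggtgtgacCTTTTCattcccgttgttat
EPB41L4A-AS1: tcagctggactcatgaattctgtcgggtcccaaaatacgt
Of the 6 with a run at both starts, ZFAS1, SNHG8 and SNHG7 fell, SNHG12 and DANCR rose and SNHG17 did not pass. EPB41L4A-AS1, which fell, had none.

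At RefSeq starts, 14 of 29 matched members had the run, against 21.1% of 27305 promoters and 52 of 69 ribosomal protein promoters. By direction, 4 of 9 members that fell, 4 of 6 that rose and 5 of 10 that did not pass had it. At GENCODE canonical starts, 9 of all 34 members had it, against 22.2% of 12192 genes, with 5 of 11 that fell, 3 of 8 that rose and 1 of 11 that did not pass. Over the 29 members with both starts, 8 had it at the GENCODE start. In the RefSeq windows from 250 bases before to 50 after the start, CACGTG was found in 2 of 29 members (7.43% of all), TGATGNAA in 0 (3.67%), TTCNNGAA in 4 (7.84%) and TGACNNNGC in 4 (13.6%), on either strand.

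GAS5, named for its rise in growth arrest and host of 10 C/D snoRNAs, fell. Its level in DMSO replicates 1 to 4 was 1014, 929.9, 953.9 and 837.3 CPM, and in PR-957 replicates 1 to 4 it was 527.0, 512.6, 474.7 and 424.0 CPM. Every PR-957 library lay below every DMSO library. The log2 fold change was -0.95 ± 0.072 (SE), a level 1.93-fold lower (edgeR adjusted p = 4.98e-09).

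SNHG29, the host of SNORD49A, fell by about as much. DMSO replicates held 2367, 2282, 2205 and 2095 CPM and PR-957 replicates 1191, 1191, 1044 and 1067 CPM. The groups were far apart, and the log2 fold change was -0.99 ± 0.063 (edgeR adjusted p = 2.95e-10).

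EPB41L4A-AS1, the host of SNORA13, had the largest decrease among the members. Its level was 99.6, 82.1, 89.9 and 76.3 CPM in DMSO and 45.8, 39.5, 39.1 and 35.1 CPM with PR-957. The groups did not overlap, and the log2 fold change was -1.12 ± 0.088, 2.18-fold lower (edgeR adjusted p = 6.03e-08).

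ZFAS1, a host of SNORD12 family members, was at 440.4, 380.5, 415.8 and 418.4 CPM in DMSO and at 280.0, 236.8, 242.2 and 244.6 CPM with PR-957. Each DMSO library was above each PR-957 library (log2 fold change -0.72 ± 0.062, edgeR adjusted p = 1.98e-08). SNHG8, the host of SNORA24, was at 225.0, 203.1, 219.7 and 191.2 CPM in DMSO and at 132.3, 132.0, 127.4 and 118.8 CPM with PR-957. It fell by 0.72 on the log2 scale with an SE of 0.061 (edgeR adjusted p = 1.49e-08).

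SNHG7 was at 203.9, 194.2, 203.4 and 180.4 CPM in DMSO and at 128.6, 126.4, 123.1 and 119.2 CPM with PR-957. Its libraries were tightly grouped on both sides, and the log2 fold change was -0.65 ± 0.055 (edgeR adjusted p = 1.55e-08). The exons of SNHG7 share 9.91% of their bases with snoRNA rows on the same strand, and fragments that touch both were left uncounted. The other members that fell did so by less. Their log2 fold changes were -0.50 ± 0.066 for SNHG6, -0.42 ± 0.066 for SNHG15, -0.40 ± 0.073 for SNHG14, -0.38 ± 0.096 for SNHG5 and -0.33 ± 0.055 for SNHG1, with no overlap between the groups for any of them. The weakest of these tests was that of SNHG5 (edgeR adjusted p = 0.00614), whose 8 libraries ran from 218.1 to 377.8 CPM. The exons of SNHG14 share bases on the same strand with SNRPN (9.88%), SNURF (7.23%), PWARSN (2.3%), IPW (1.15%) and PWAR4 (0.24%). Fragments that touch SNHG14 and any of these were left uncounted.

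**Figure D3:**
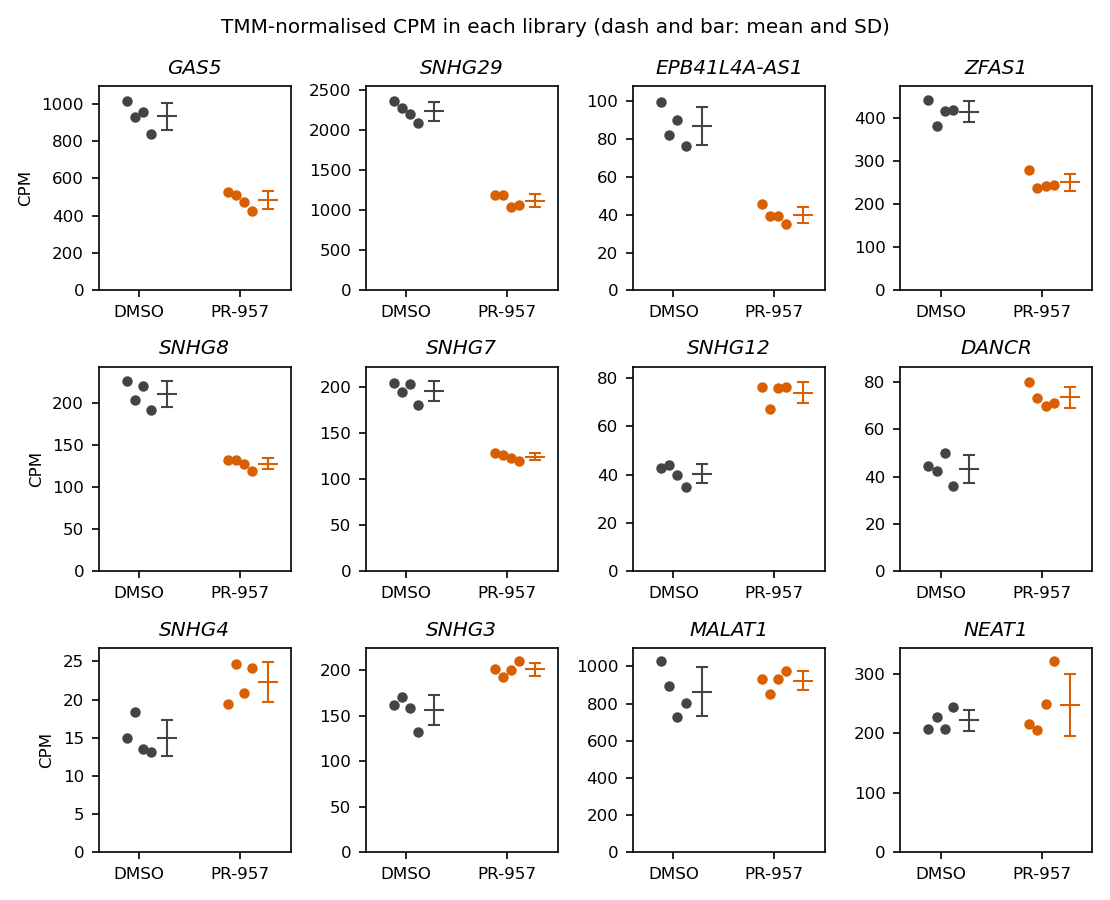
TMM-normalised CPM of 12 members in each library, with axes from 0; points are the 4 libraries of a group and the dash and bar are their mean and SD. GAS5, SNHG29, EPB41L4A-AS1, ZFAS1, SNHG8 and SNHG7 lie lower with PR-957 and SNHG12, DANCR, SNHG4 and SNHG3 higher, while the groups of MALAT1 and NEAT1 overlap.

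SNHG12, the host of SNORA16A and SNORD99, rose. It was at 42.9, 44.2, 39.9 and 35.0 CPM in DMSO and at 76.3, 67.3, 75.7 and 76.3 CPM with PR-957. The lowest PR-957 library, replicate 2, was still above every DMSO library, and the log2 fold change was 0.87 ± 0.072, 1.83-fold higher (edgeR adjusted p = 1.19e-08). The exons of SNHG12 share 10.24% of their bases with snoRNA rows on the same strand, and fragments that touch both were left uncounted.

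DANCR, an RNA known for opposing differentiation in other lineages and the host of SNORA26, also rose. Its level was 44.2, 42.5, 50.1 and 35.8 CPM in DMSO and 79.9, 73.0, 69.8 and 71.1 CPM with PR-957. The groups were separate, with a log2 fold change of 0.77 ± 0.082 (edgeR adjusted p = 8.87e-07). SNHG30 (0.61 ± 0.14), SNHG4 (0.57 ± 0.11) and SNHG3 (0.37 ± 0.067) rose without overlap between the groups. The exons of SNHG4 share 38.87% of their bases on the same strand with MATR3, and those of SNHG3 share 10.7% with RCC1. Fragments that touch both genes were left uncounted, so these 2 levels rest on the remaining bases.

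SNHG16, host of the SNORD1 family, had a log2 fold change of 0.25 ± 0.066 (edgeR adjusted p = 0.00406), and its groups overlapped, at 111.5 to 129.4 CPM in DMSO and 128.5 to 153.4 CPM with PR-957. The calls of SNHG9 and SNHG25 rested on few counts, 55 in DMSO against 108 with PR-957 for SNHG9 and 26 against 59 for SNHG25, each summed over 4 libraries. Their log2 fold changes were 0.89 ± 0.30 and 1.11 ± 0.41 (edgeR adjusted p = 0.0192 and 0.0317). Leaving out replicate 2 of either group ended both calls, and leaving out DMSO replicate 3 or 4 also ended that of SNHG9. Over the fits that left out 1 library, the log2 fold change ran from 0.78 to 1.16 for SNHG9 and from 0.81 to 1.25 for SNHG25.

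MALAT1 was at 1031, 896.8, 727.7 and 803.0 CPM in DMSO and at 933.0, 853.8, 932.3 and 975.2 CPM with PR-957. The groups overlapped, and DMSO replicate 1 was the highest of all 8 libraries. Its log2 fold change was 0.10 ± 0.088 (edgeR adjusted p = 0.397). Over 19 alternative fits it ran from -0.11 to 0.31 and passed in 2 of them, the fit of replicates 3 and 4 alone and the fit without DMSO replicate 1 (lowest edgeR adjusted p = 0.00672). MALAT1 shares 82.07% of its exon bases with its antisense partner TALAM1, and counting used strand, with 133993 counts for MALAT1 and 597 for TALAM1 over the 8 libraries.

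NEAT1 was at 206.8, 227.6, 207.4 and 243.5 CPM in DMSO and at 215.4, 205.8, 248.7 and 320.3 CPM with PR-957. PR-957 replicate 4 stood highest and the groups otherwise overlapped (log2 fold change 0.16 ± 0.14, edgeR adjusted p = 0.393). The remaining members that did not pass were SNHG10, SNHG11, SNHG17, SNHG19, SNHG20, SNHG21, SNHG26, SNHG31 and SNHG32. Among those at 1 CPM or more, log2 fold changes ran from -0.09 ± 0.12 for SNHG20, which shares 22.5% of its exon bases with SEC14L1, to 0.21 ± 0.13 for SNHG21. SNHG10 shares 14.02% of its exon bases with a snoRNA row on the same strand.

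No snoRNA row nested in these hosts fell, and few snoRNA rows did anywhere (0.840% of 119 tested). The table holds 147 snoRNA rows nested in 30 of the members, 83 of them in SNHG14, and 55 of the 64 others have no base in the exons of their host. These libraries were made from polyadenylated RNA, so a row can hold mature snoRNA or unspliced host RNA, and these cannot be told apart here. Of 32 nested rows tested, 8 rose by edgeR, 6 by DESeq2 and 10 by limma-voom, with a median log2 fold change of 0.39. None fell, with 0 lower by each of the 3 tools and 0 lower at an unadjusted p under 0.05. Of all 119 snoRNA rows tested, 28.6% rose and 0.840% fell, with a median of 0.50. Outside the members, 26 of 87 rows rose and 1 fell, with a median of 0.53. The nested rows were near these shares, so neither their increases nor the lack of decreases is particular to these hosts. In the hosts that fell, 21 rows were tested, of which 18 had a positive log2 fold change, 3 rose by edgeR (SNORD74, SNORD50B and SNORD87), 1 by DESeq2 and 5 by limma-voom, and 0 fell by any of them. In the hosts that rose, 5 of 7 tested rows rose, namely SNORA73A and SNORA73B of SNHG3, SNORD99 and SNORA16A of SNHG12 and SNORD104 of SNHG25.

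A few of these snoRNAs are printed to show what the rows cover, 5′ to 3′ as in hg38, with the C box TGATGA and the D box CTGA of C/D snoRNAs, or the closing ACA of an H/ACA snoRNA, in capitals. SNORD74 (chr1:173867674-173867745) and SNORD80 (chr1:173864833-173864903) lie in GAS5, SNORD49A (chr17:16440036-16440106) in SNHG29, SNORD50B (chr6:85677589-85677659) in SNHG5, SNORD104 (chr17:64146078-64146157) in SNHG25 and SNORA16A (chr1:28580920-28581053) in SNHG12. The GAS5, SNHG5 and SNHG12 entries are on the minus strand and the others on the plus strand.
SNORD74: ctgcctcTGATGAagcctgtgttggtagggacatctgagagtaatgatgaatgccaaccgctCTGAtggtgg
SNORD80: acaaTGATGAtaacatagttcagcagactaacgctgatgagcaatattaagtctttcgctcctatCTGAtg
SNORD49A: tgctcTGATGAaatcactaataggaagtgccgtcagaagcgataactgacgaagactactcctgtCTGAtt
SNORD50B: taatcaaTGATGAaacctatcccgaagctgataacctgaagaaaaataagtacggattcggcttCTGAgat
SNORD104: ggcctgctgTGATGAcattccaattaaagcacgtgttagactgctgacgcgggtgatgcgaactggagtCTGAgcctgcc
SNORA16A: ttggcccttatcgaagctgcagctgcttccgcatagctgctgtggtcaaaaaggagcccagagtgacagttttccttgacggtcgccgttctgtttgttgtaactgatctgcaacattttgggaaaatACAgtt
Both boxes were found in 13 of 21 C/D rows read, and the ACA in the last 8 bases of 10 of 10 H/ACA rows.

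SNORD74 was at 1.06, 1.89, 2.11 and 1.88 CPM in DMSO and at 2.62, 2.76, 2.78 and 2.53 CPM with PR-957 (log2 fold change 0.61 ± 0.23, edgeR adjusted p = 0.0327). The groups did not overlap, but the call was lost in 6 of 19 alternatives, including those that left out DMSO replicate 1 or any of the first 3 PR-957 replicates, where the log2 fold change of SNORD74 ran from 0.45 to 0.62. Those of SNORD50B and SNORD87 were each lost in 5, including without DMSO replicate 4 (log2 fold changes of 0.64 to 0.79 and 0.45 to 0.63 over fits that left out 1 library). SNORD80, the highest snoRNA row of GAS5, was at 7.63, 10.6, 8.02 and 7.68 CPM in DMSO and at 12.02, 9.49, 9.53 and 10.6 CPM with PR-957, where 1 DMSO library overlapped the treated ones (log2 fold change 0.29 ± 0.13, edgeR adjusted p = 0.0717). SNORD104 was at 16.5, 14.97, 12.2 and 11.1 CPM in DMSO and at 25.2, 18.6, 21.8 and 23.6 CPM with PR-957 (log2 fold change 0.71 ± 0.12, edgeR adjusted p = 1.60e-04). It held 202 to 478 counts per library, against 3 to 23 for the exons of its host SNHG25.

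Summed over the intronic snoRNA rows of GAS5, there were 2.38, 2.79, 2.66 and 2.54 fragments per 100 host exon fragments in DMSO and 6.12, 5.14, 5.79 and 6.96 with PR-957. The ratio was higher in every treated library. The summed rows differed by 0.34 on the log2 scale and the host exons by -0.87 in CPM on library totals, giving a change of the ratio of 1.21. For SNHG29 the ratio was 0.218 ± 0.0088 in DMSO and 0.484 ± 0.118 with PR-957 (SD, n = 4), and for ZFAS1 it was 0.284 ± 0.080 and 0.949 ± 0.160. In 16 hosts with at least 10 summed snoRNA counts in each library, the ratio was higher without overlap in 9 and lower without overlap in 0. Each of the 9 had an exact permutation p of 0.0286, the smallest possible, and an adjusted p of 0.0508 over the 16 hosts, which does not pass 0.05. Of the 9, SNHG3 and SNHG12 were hosts that rose. The others were hosts that fell, so their lower exon counts enter the ratio. Rows of snoRNAs outside the members had a median log2 fold change of 0.53, and no such ratio was computed for other hosts. Whether the ratio is particular to these hosts was not tested. In DANCR, which rose, the ratio was 2.32 ± 0.271 in DMSO and 2.17 ± 0.748 with PR-957.

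**Figure D4:**
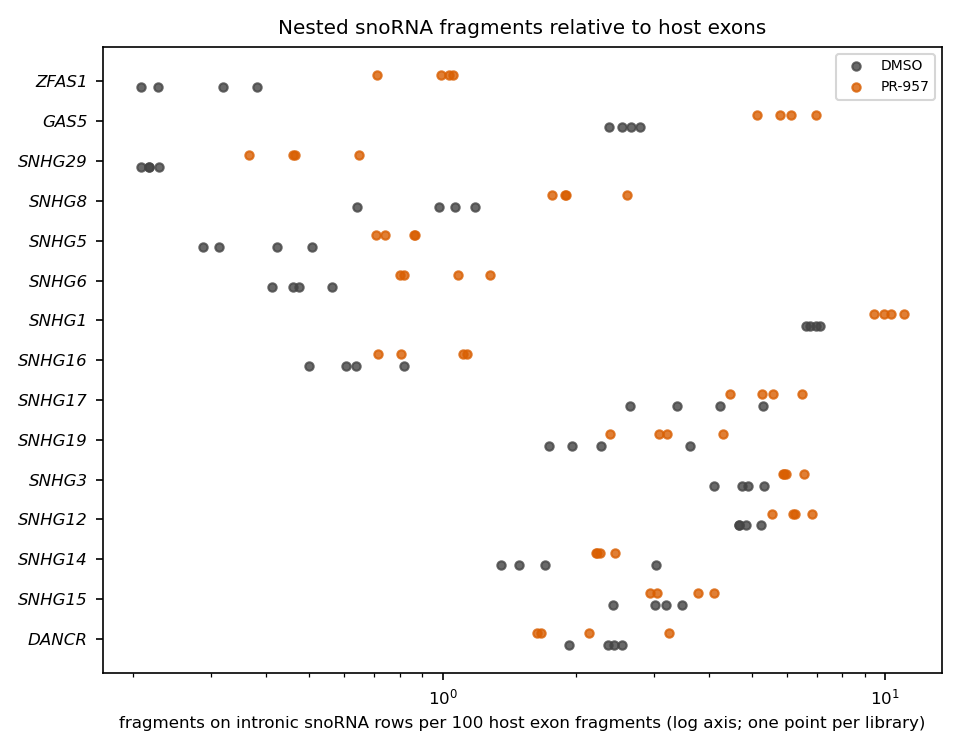
Fragments on intronic snoRNA rows per 100 host exon fragments (log axis), one point per library, for 15 hosts with at least 10 summed snoRNA counts in each library; SNHG25, whose snoRNA exceeds its exons, is left out. The groups are separate for GAS5, SNHG29, ZFAS1, SNHG8, SNHG5, SNHG6, SNHG1, SNHG3 and SNHG12, with PR-957 higher, and overlap for DANCR and SNHG15.

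Ribosomal protein genes, most of which carry the same pyrimidine run, mostly fell. Of 79 cytosolic ribosomal protein genes tested, 69 fell and 6 rose (of all genes, 23.5% fell and 23.1% rose), with a median log2 fold change of -0.41. Of 21 protein-coding snoRNA hosts tested, 11 fell and 8 rose with TMM scaling, and 6 fell and 8 rose with library totals alone. The number that fell was 6 without DMSO replicate 2 and 7 without PR-957 replicate 3, and 6 with replicates 3 and 4 alone. The largest changes were those of EEF2, the elongation factor that moves the ribosome along the message (-0.84 ± 0.062), and of HSPA8, a constitutive HSP70 chaperone (0.93 ± 0.11).

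Transcripts of proteins that act on snoRNAs and hosts showed no change of 1.5-fold or more among those that passed. All values here are RNA counts, and protein levels are not part of these data. Of 17 snoRNP assembly and core proteins, 5 rose and 3 fell (9 and 2 with library totals alone, and 0 lower with replicates 3 and 4 alone), shares near those of all genes (23.1% and 23.5%), with NOP10, a core protein of H/ACA particles, at 0.38 ± 0.059 and ZNHIT6, a C/D assembly factor, at -0.31 ± 0.071. FBL did not pass, at a mean of 2.19 CPM in DMSO and 2.15 CPM with PR-957. Fragments of FBL that map to several places may have been lost, so this is not a reliable level. Of 18 factors of nonsense-mediated decay and the exon junction complex, 4 rose and 3 fell, shares not above those of all genes (23.1% and 23.5%). The counts were 9 and 2 with library totals alone, and 5 were lower without DMSO replicate 4. EIF4A3 was at 0.41 ± 0.060 and CASC3 at -0.38 ± 0.056, both parts of the exon junction complex. Of 15 paraspeckle and nuclear speckle proteins, 7 rose and 0 fell by edgeR, DESeq2 or limma-voom, also with 0 lower at an unadjusted p under 0.05, and 11 rose with library totals alone. Of all genes, 23.1% rose and 23.5% fell. The largest of the 7 increases was that of HNRNPM, a splicing regulator (0.51 ± 0.052). Of 9 other long noncoding RNAs tested, 2 rose and 2 fell, shares near those of all genes. The 2 that rose were KCNQ1OT1, an imprinted transcript (0.60 ± 0.17), and MIR17HG, a microRNA host (0.29 ± 0.10). The 2 that fell were MIR155HG, the host of miR-155 (-0.40 ± 0.095), and NORAD (-0.31 ± 0.056). The call of MIR17HG was lost on leaving out DMSO replicate 1 or 4 or PR-957 replicate 3 or 4. With replicates 1 and 2 alone neither increase passed, and KCNQ1OT1 was at 0.25 (edgeR adjusted p = 0.293).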

How the data were processed

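RNA-sequencing of polyadenylated RNA from 8 MOLM-13 libraries was used, 4 per group, grouped by the sample titles. Per the submitters' processing notes and the file headers, the authors trimmed reads with Trimmomatic 0.39, aligned them to hg38 with STAR 2.7.10a and deposited raw fragment counts per RefSeq gene made with featureCounts 2.0.1 (both ends mapped, reverse strand, fragments touching 2 genes left uncounted). The counting command named 16 libraries, of which 8 are in the table and the other 8 were not analysed here. A deposited table of the authors' own comparison was not used. The members and lists were chosen with earlier results of these data known. The rule for named genes took every member, described those at 1 CPM or more, and took the largest increase and decrease among the called genes of each list; other genes named were chosen after their values were seen.

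Counts were tested with edgeR 4.0.16 in R 4.3.3 (filterByExpr, TMM, glmQLFit with robust estimation, glmQLFTest, two-sided, no covariate, all 8 libraries), with Benjamini-Hochberg adjustment over 13179 genes. SEs were derived from the log2 fold change and its F statistic. The fit was tested on simulated data. TPM used the exon lengths of the count table, and ratios of snoRNA to host counts were compared by exact permutation (scipy 1.17.1). Intervals were not drawn for ratios of low counts, and the limit of 3 counts covers counting error only. Libraries of a group differed by more than sampling noise, with a chi-square per gene of at least 3.19, so each was kept. Alternatives were DESeq2 1.42.0, limma-voom (limma 3.58.1), other scalings and filters, the replicate number as a block, replicates 1 and 2 or 3 and 4 alone or as a term, and leaving out each library. The GENCODE starts and the left-out libraries for ratios and library makeup were added after seeing the data. Start windows and snoRNAs were read from hg38, and promoters from RefSeq (29 of 34 members matched by symbol). Sequences on chromosome 8 are not shown. The values of 2 marker genes are not reported here.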

Additional observations from a re-analysis of the deposited data

Results flagged for a closer look

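In 4 of 54 combinations of an expressed member and a group, 1 of the 4 libraries lay far from the rest (its gap to the nearest library, as a share of the group's range, was above Dixon's 95% critical value for 4 samples). Chance gives such a gap in about 1 of 20 groups. SNHG12 was at 67.27 CPM in PR-957 replicate 2 and at 75.72 to 76.3 CPM in the other libraries of that group. SNHG21 was at 10.39 CPM in PR-957 replicate 4, with the others at 8.68 to 8.85 CPM. SNHG9 was at 1.189 CPM in DMSO replicate 1, from 19 counts, with the others at 0.603 to 0.668 CPM. SNHG19 was at 32.07 CPM in PR-957 replicate 2, with the others at 35.0 to 35.6 CPM.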

How the results depend on the processing

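Of the 19 members that passed, 17 kept their call in all 19 alternative fits and 0 changed sign. SNHG9 and SNHG25 lost theirs in 7 and 5 fits. Over the fits, 6 to 9 members rose and 11 or 12 fell. With the replicate block, 8 members rose and 11 fell, and 6913 of all genes passed in place of 6143. Same-numbered libraries correlated positively in their deviations, at 0.151, 0.213, 0.098 and 0.198. For PR-957 replicates 1, 2 and 4 the same-numbered DMSO library gave the highest correlation. PR-957 replicate 3 correlated best with DMSO replicate 4, by a small margin (0.105 against 0.098). The main fit did not take the numbers as pairs, and whether they mark a shared replicate effect was not tested. The block also moved the snoRNP protein genes that rose from 5 to 8. With replicates 3 and 4 alone, 1 decay or exon junction factor gene fell in place of 3. With library totals alone, 9 snoRNP protein genes, 9 decay or exon junction factor genes and 11 speckle protein genes rose (5, 4 and 7 with TMM). With the same setting 6 coding hosts fell (11 with TMM), and the median of all genes moved from 0.003 to 0.081. The number of member promoters with the pyrimidine run was 14 of 29 at RefSeq starts and 9 of 34 at GENCODE starts (8 of the same 29). Low counts limit SNHG9, SNHG25, SNHG31 and most single snoRNA rows.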

Other observations

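DMSO replicate 4, the library with the most counts, was the lowest of its group in CPM for 17 of 27 expressed members and for 8 of the 11 that fell. Across genes it also differed most from the other DMSO libraries, with a chi-square per gene of 9.52 to 14.2. Pairs among those other libraries gave 3.19 to 5.49. How often it was the lowest over all genes was not counted. PR-957 replicate 2 was the lowest of its group for 11 of 27. SNHG31, at 0.603 CPM on average, had 5 counts in each of PR-957 replicates 1 and 2 and 17 and 15 counts in replicates 3 and 4, against 9 to 14 counts in DMSO libraries. With replicates 1 and 2 alone its log2 fold change was -1.54 (edgeR adjusted p = 0.0309), and over all 8 libraries it was -0.27 ± 0.41.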
